A study of Mus musculus with 7 samples.

Results

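Hand1 knockout ventricles were set against Cre-negative floxed ventricles of mouse embryos at E11.5, with polyadenylated RNA sequenced from dissected ventricle tissue. The comparison was defined by genotype label and uses 4 of the 7 libraries of the series. The 2 Hand1 knockout libraries come from embryos with the genotype Nkx Cre +/-; H1flox/flox, and the 2 flox control libraries come from embryos with Nkx Cre wt; H1flox/flox. Both groups are therefore homozygous for floxed Hand1, are of mixed strain background and had no treatment. They differ by the Cre allele at Nkx2-5 as well as by the recombination of Hand1, so an effect of the Cre allele and an effect of losing Hand1 cannot be told apart within these 4 libraries. The other 3 libraries, the Cre controls (Nkx Cre +/-; wt), carry the Cre allele with unfloxed Hand1. They served to estimate the spread between libraries, and their levels are given for reference. The comparison asks which transcripts differ when Hand1 is removed from the Nkx2-5 lineage.

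Hand1 is a basic helix-loop-helix transcription factor. It pairs with broadly expressed E proteins and binds DNA at E-boxes, and in the looping heart it marks the future left ventricle, while its paralog Hand2 prevails in the right ventricle and outflow tract. The Nkx2-5 Cre allele used here acts in cardiac progenitors and the myocardium that forms from them, so Hand1 made by cells outside that lineage can remain. The tissue is a mixture of myocardium, endocardium, epicardium, cushion cells and blood. In such bulk tissue, fewer cells of a type and less RNA per cell cannot be told apart.

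The libraries held between 18975283 counts (knockout replicate 2) and 28346700 counts (knockout replicate 1) over 13701 genes. Cardiomyocyte genes were abundant in all 4 libraries: cardiac troponin T (Tnnt2) stood at 3020 and 2390 CPM (counts scaled to library size) in knockout replicates 1 and 2, against 2460 and 2650 CPM in flox replicates 1 and 2. Knockout replicate 2 stood apart. Its log2 levels correlated across 13350 genes at r = 0.875 with knockout replicate 1, while the 2 flox libraries correlated at r = 0.976 (genes are not independent replicates). Its difference from the flox mean followed gene length, from a median of 1.12 (log2) in the decile of genes with the shortest transcripts to -0.72 in the decile with the longest. Knockout replicate 1 ran from -0.04 to -0.40 over the same deciles. By GC content, replicate 2 ran from 1.04 in the most AT-rich decile to -0.48 in the most GC-rich, and replicate 1 ran the other way, from -0.44 to 0.16. The flox libraries differed from each other by 0.47 at the AT-rich end and -0.15 at the GC-rich end, flox replicate 1 leaning the way of knockout replicate 2. The correlation between knockout replicate 1 minus flox replicate 1 and knockout replicate 2 minus flox replicate 2 was -0.359 across genes. With the flox partners exchanged it was 0.217, and with length and GC correction these values were -0.177 and 0.263. Agreement between the knockout libraries across all genes thus depended on the pairing, and values are given below for each library. Both knockout libraries and flox replicate 2 were high in Xist, the RNA of the inactive X chromosome (488 and 1640 CPM in the knockout and 800 CPM in flox replicate 2), against 1.21 CPM in flox replicate 1. In their identifiers both knockout libraries and flox replicate 2 share the prefix NT, which flox replicate 1 lacks, and what the prefix stands for is not stated. The part of embryo sex or of that prefix in the results was not tested. CPM below are not corrected for length and GC, nor are counts of genes above or below both flox libraries unless stated. Corrected differences from the flox mean (log2 CPM) are given for some genes only. Correction also moved values of genes that are given without them.

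**Figure D1:**
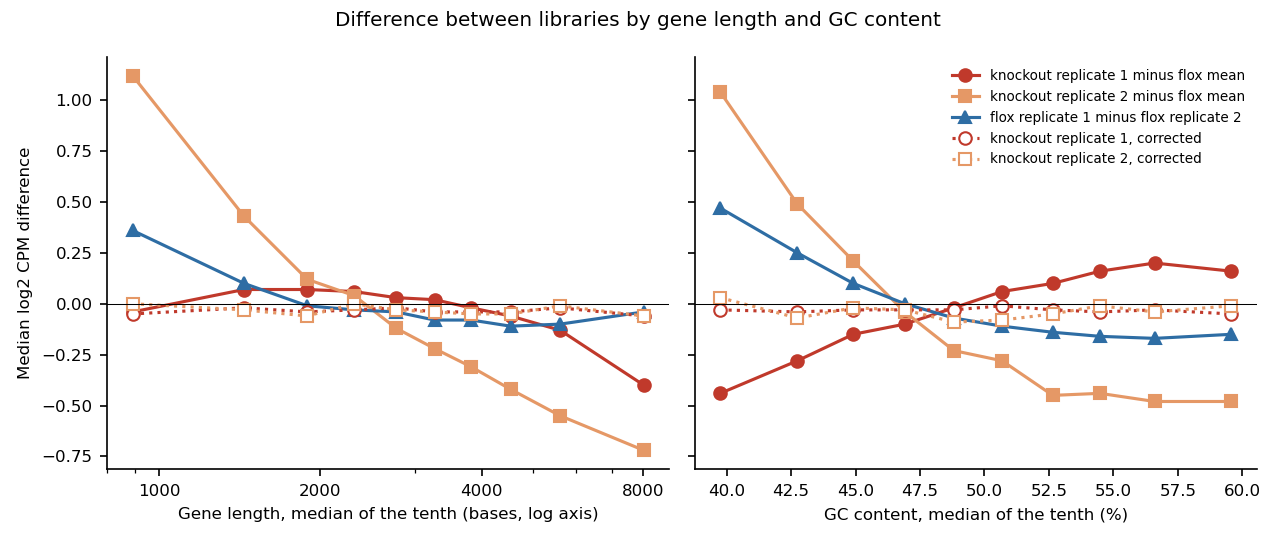
Median log2 CPM difference (vertical axis) in deciles of genes ordered by length (left, log axis, bases) or GC content (right, percent). Filled red circles and orange squares are knockout replicates 1 and 2 minus the flox mean, blue triangles are flox replicate 1 minus flox replicate 2, and open symbols are the knockout values after correction. Knockout replicate 2 runs from 1.12 to -0.72 with length, and the corrected values stay between -0.09 and 0.03.

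Hand1 transcripts were almost gone from both knockout libraries. Hand1 (chromosome 11 from 57828713 to 57832147, minus strand, 2 exons, mm10) had 37 and 19 counts in the knockout, replicate 1 first, against 875 and 1272 counts in flox. This is 1.29 and 1.14 CPM in the knockout libraries, against 34.1 and 47.6 CPM in the flox libraries. The knockout libraries lay close together and far below both flox libraries, at 3.16% and 2.80% of the flox mean. Hand1 fell by 5.06 ± 0.31 on the log2 scale (SE, edgeR adjusted p = 0.0363), a call lost without flox replicate 1 (0.128) or 2 (0.203), or without Cre control replicate 1 (0.168), 2 (0.16) or 3 (0.386). The call was also lost by limma-voom (adjusted p = 0.888) and with edgeR on the knockout and flox libraries alone (adjusted p = 0.984). The size of the change moved little, between -5.27 and -4.76, when single libraries were left out, and it was -5.27 without flox replicate 1, that is, among libraries with the shared prefix. Because the labels say nothing of litters, these p-values reflect only how far the sequenced samples vary, which may be technical.

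Hand2, the paralog, did not follow. Its level was 178 and 141 CPM in the knockout (replicates 1 and 2), against 143 and 170 CPM in flox replicates 1 and 2, and the groups overlapped (log2 0.03 ± 0.22, edgeR adjusted p = 0.964), with a sign that turned negative without scaling factors, by limma-voom, with length correction and without knockout replicate 1 or flox replicate 1. The differences of Hand2 from the flox mean, 0.19 and -0.14 (log2) in replicates 1 and 2, turned to -0.08 and 0.32 after length and GC correction. A long noncoding gene, Hand2os1, overlaps Hand2 on the opposite strand. Nkx2-5, the homeobox gene whose locus carries the Cre, stood at 125 and 88.9 CPM in the knockout, against 131 and 161 CPM in the flox libraries. The knockout libraries were both below the flox libraries, replicate 1 narrowly (log2 -0.45 ± 0.26, edgeR adjusted p = 0.606). Among 11 tested HAND factors and helix-loop-helix partners, edgeR called Hand1 alone. Of the 11, 3 were below both flox libraries in both knockout libraries, Hand1 among them, against 16.3% of all genes tested. The E protein gene Tcf12 stood at 153 and 164 CPM in the knockout, against 189 and 183 CPM in the flox libraries.

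**Figure D2:**
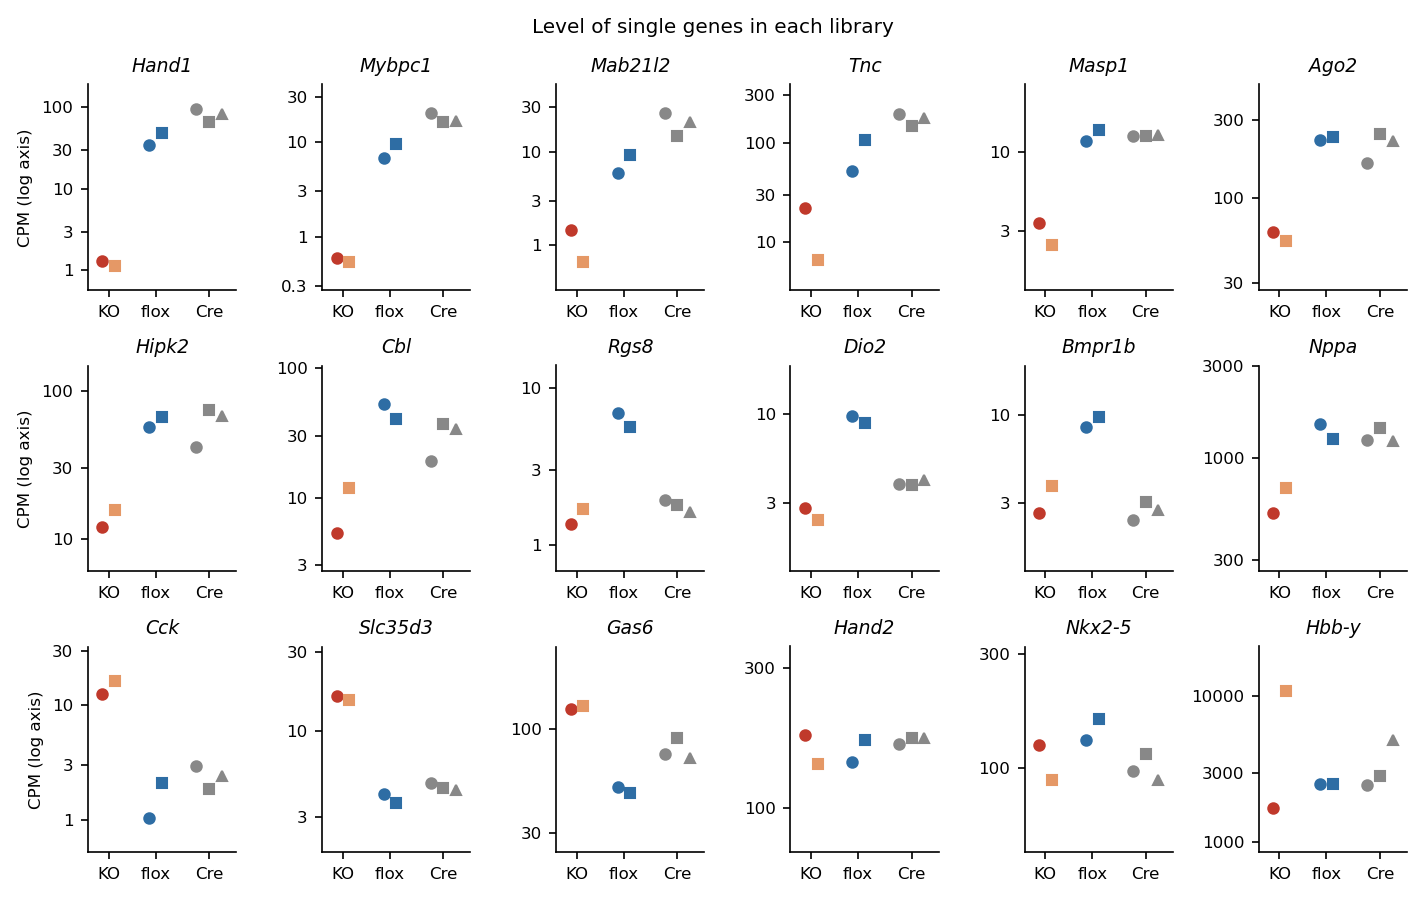
CPM (log axis) of 18 genes in every library. Knockout libraries (KO, red circle replicate 1, orange square replicate 2) stand left of flox controls (blue circle replicate 1, blue square replicate 2) and Cre controls (grey, replicates 1 to 3 as circle, square and triangle). For Hand1, Mybpc1 and Masp1 both knockout libraries lie below all 5 controls, for Rgs8, Dio2 and Bmpr1b they lie at or near the Cre controls, and for Hand2 the groups overlap.

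The other gene that fell was Mybpc1, which encodes the slow skeletal form of myosin-binding protein C and lies on chromosome 10 from 88518279 to 88605152 (minus strand, 30 exons). Its level was 0.593 and 0.542 CPM in the 2 knockout libraries, against 6.75 and 9.43 CPM in flox replicates 1 and 2. The knockout libraries nearly coincided at 7.34% and 6.70% of the flox mean, and the groups were far apart. It fell by 3.81 ± 0.28 on the log2 scale (SE, edgeR adjusted p = 0.0473), and edgeR called these 2 of 13695 genes (0.0146%), both lower. EdgeR called 0 genes higher. At an unadjusted p below 0.05 edgeR found 412 higher and 733 lower genes, limma-voom called 0 in either direction at its adjusted threshold, and DESeq2 called 92 higher (0.672%) and 210 lower (1.53%). Leaving out flox replicate 1 or 2 or Cre control replicate 1, 2 or 3 ended the call each time, with edgeR adjusted p between 0.142 and 0.402. Over all alternatives its log2 change stayed between -4.02 and -3.51. Mybpc1 shares 252 exonic bases with a gene on the opposite strand, and whether strand was used in counting is not given in the sources used here. Exons of Mab21l2, Rgs8, Kcnd3, Cacna1d, S1pr3, Adcy2, Dio2 and Hist1h2ak, described below, also overlap a gene on the opposite strand. Ap3b2 shares up to 352 exonic bases with a gene on the same strand. Overlaps were not sought for every gene described here. Of the determinants of skeletal muscle, Myod1, Myog, Myf5 and Pax7 were not among the genes analysed here.

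The promoter of Mybpc1 is shown because it fell together with Hand1, and those of Cck and Slc35d3 because, a histone gene aside, these 2 genes led the genes that stood higher in both knockout libraries. Each line gives the 250 bases before the RefSeq start on GRCm38.p6, in the direction of transcription, with each CANNTG, the E-box, in capitals. They cover chr10:88605153-88605402, chr9:121495695-121495944 and chr10:19851460-19851709, all on the minus strand.
Mybpc1: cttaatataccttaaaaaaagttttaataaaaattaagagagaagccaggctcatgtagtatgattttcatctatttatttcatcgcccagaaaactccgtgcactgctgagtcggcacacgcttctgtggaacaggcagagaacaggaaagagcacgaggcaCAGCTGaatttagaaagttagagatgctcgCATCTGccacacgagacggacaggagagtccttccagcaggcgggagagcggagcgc
Cck: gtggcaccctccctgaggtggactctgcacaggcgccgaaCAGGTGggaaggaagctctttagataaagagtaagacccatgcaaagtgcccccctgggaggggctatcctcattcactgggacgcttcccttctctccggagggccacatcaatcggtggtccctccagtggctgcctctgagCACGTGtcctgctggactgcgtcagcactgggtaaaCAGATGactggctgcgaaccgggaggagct
Slc35d3: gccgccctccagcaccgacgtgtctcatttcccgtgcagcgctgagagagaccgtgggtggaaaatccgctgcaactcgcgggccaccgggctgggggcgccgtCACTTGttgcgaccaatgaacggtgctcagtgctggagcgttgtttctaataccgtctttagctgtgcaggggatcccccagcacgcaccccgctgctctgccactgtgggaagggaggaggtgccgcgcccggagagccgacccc
CANNTG reads the same on both strands and occurs in 56.5% of 10035 promoters of this length that could be matched to tested genes. The form CATCTG, or CAGATG on the other strand, which is a subset of CANNTG and is found near the start in Mybpc1 and Cck, occurs in 9.8% of them. Among 39 matched promoters of genes lower in the knockout by the 2-fold rule described next, before and after correction, 23 hold CANNTG and 2 hold CATCTG. These letters are a description of the windows and not evidence of binding.

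Because the 2 knockout libraries differed from each other, genes were also ordered without a test. The order used the difference in each of the 4 pairs of a knockout and a flox library. Of 13350 genes with a mean of at least 1 CPM in the higher group, 124 (0.929%) differed at least 2-fold the same way in all 4 pairs, 112 lower in the knockout (0.839%) and 12 higher (0.0899%). After correction for length and GC 74 of them still did so (0.554%), 69 lower and 5 higher (0.517% and 0.0375%). The lower genes had long transcripts, with a median of 4174 bases, and the higher ones short, with 1841 bases, against 2993 bases for all genes tested. Prickle2 lay just inside the limit (26.7 and 24.6 CPM in the knockout, against 53.7 and 57.5 in flox) and Scube2 just outside it (10.6 and 6.68 CPM, against 21.3 and 33.0). With 1 library left out, so that only 2 pairs had to pass, 3175 (knockout replicate 1 left out), 349 (knockout replicate 2), 242 (flox replicate 1) and 241 genes (flox replicate 2) qualified.

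Mab21l2, a nuclear protein needed for eye and body wall development, stood at 1.47 and 0.662 CPM in the knockout (replicates 1 and 2), against 5.97 and 9.21 CPM in the flox libraries. Masp1, a protease of the lectin pathway of complement, stood at 3.39 and 2.41 CPM in the knockout, against 11.8 and 14.0 CPM in flox. All 4 libraries kept apart by group for both genes, and for Masp1 the knockout libraries were at 26.2% and 18.6% of the flox mean. Tnc, the matrix glycoprotein tenascin C, stood at 22.3 and 6.56 CPM in the knockout, against 52.3 and 108 CPM in flox, where the libraries of each group differed among themselves by more than 2-fold. Its log2 change was -2.46 ± 0.63 (edgeR adjusted p = 0.415), and its differences of -1.74 and -3.50 in replicates 1 and 2 were -1.70 and -2.44 after correction. Slc24a4, a potassium-dependent sodium-calcium exchanger, stood at 1.85 and 1.32 CPM in the knockout, against 7.65 and 7.67 CPM in flox. Ankrd63, an ankyrin-repeat gene, stood at 0.768 and 0.181 CPM in the knockout, against 4.02 and 6.74 CPM in flox (corrected differences of -2.83 and -3.33, in place of -2.64 and -4.35).

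Ago2, Hipk2 and Cbl were also past 2-fold in all 4 pairs, before and after correction. Ago2, the slicing argonaute of the microRNA pathway, stood at 61.8 and 54.4 CPM in the knockout (replicates 1 and 2), against 225 and 234 CPM in flox replicates 1 and 2. The knockout libraries held 26.9% and 23.7% of the flox mean, and the differences of -1.89 and -2.08 (log2) were -1.67 and -1.28 after correction. Hipk2, a nuclear kinase, stood at 12.2 and 15.7 CPM in the knockout, against 57.1 and 66.8 CPM in flox, differences of -2.33 and -1.97 that were -2.48 and -1.11 after correction. Cbl, a ubiquitin ligase that ends receptor tyrosine kinase signalling, stood at 5.38 and 11.8 CPM in the knockout, against 52.7 and 40.3 CPM in flox. Its differences of -3.08 and -1.96 were -2.98 and -1.60 after correction. In all 3 genes the groups were well separated, with the knockout libraries less alike after correction. In all 3, too, the lowest of the Cre controls was replicate 1: Ago2 stood at 163, 246 and 223 CPM, Hipk2 at 41.9, 73.6 and 67.1, and Cbl at 19.3, 37.4 and 34.2 CPM in Cre control replicates 1 to 3.

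Few genes stood higher. Cck, the peptide hormone cholecystokinin (chromosome 9 from 121489824 to 121495694), stood at 12.6 and 16.3 CPM in the knockout (replicates 1 and 2), against 1.05 and 2.13 CPM in flox replicates 1 and 2. Slc35d3, a nucleotide sugar transporter family member (chromosome 10 from 19847917 to 19851459), stood at 16.3 and 15.4 CPM in the knockout, against 4.13 and 3.63 CPM in flox. Both knockout libraries were far above both flox libraries for each gene, and for Cck the difference in replicate 2 was 3.37 (log2) before and 2.67 after correction. The leucine-rich repeat gene Lrrc3b stood at 8.31 and 9.33 CPM in the knockout, against 3.32 and 2.73 CPM in flox. Gas6, a ligand of the TAM receptor kinases, stood at 126 and 130 CPM in the knockout, against 51.1 and 47.7 CPM in flox. Its differences of 1.35 and 1.39 (log2) in replicates 1 and 2 were 1.07 and 1.94 after correction. The pair of knockout replicate 1 and flox replicate 1 then differed by 0.91, short of the 2-fold rule. None of these passed the edgeR test with both knockout libraries: the adjusted p was 0.214 for Cck, 0.114 for Slc35d3, 0.217 for Lrrc3b and 0.243 for Gas6. Hist1h2ak stood at 4.92 and 32.1 CPM in the knockout, against 0.273 and 0.749 CPM in flox, and is uncertain because near-identical histone genes could divide reads between them, which was not measured.

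**Figure D3:**
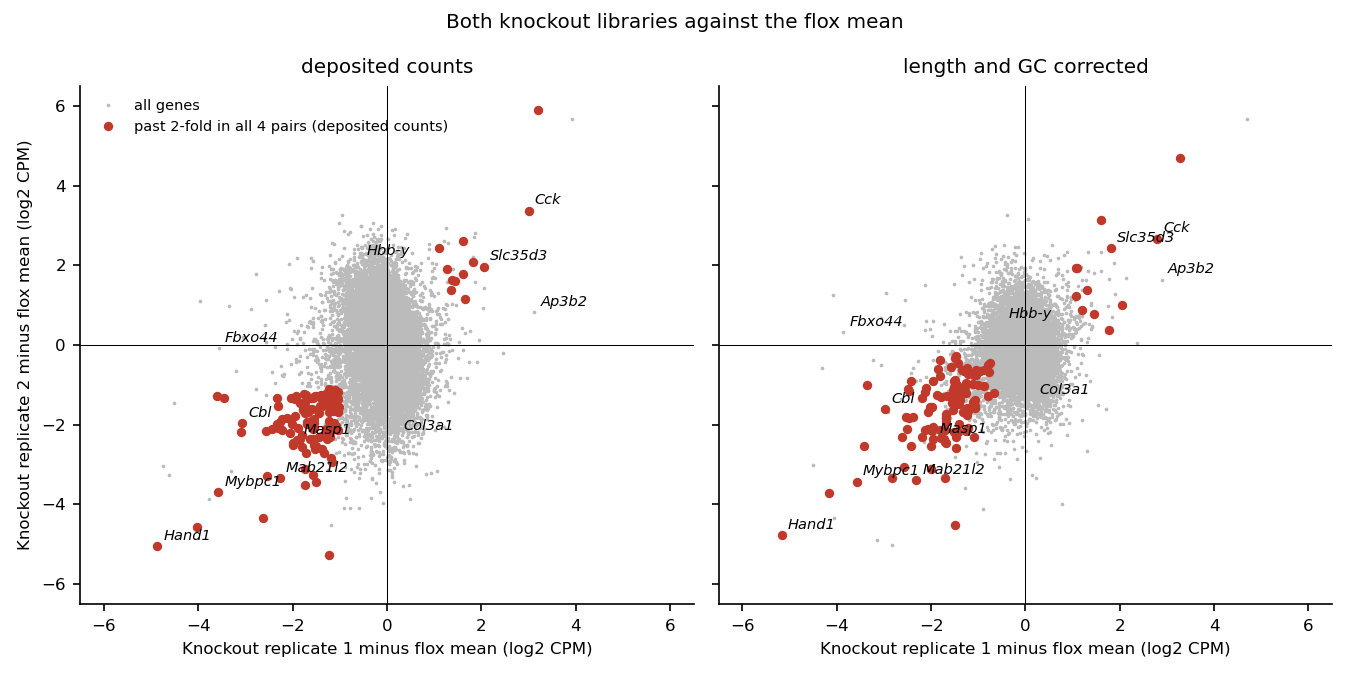
Difference of knockout replicate 1 (horizontal axis) and knockout replicate 2 (vertical axis) from the flox mean, in log2 CPM, for 13350 genes, on the deposited counts (left) and after length and GC correction (right). Red points are the 124 genes at least 2-fold apart the same way in all 4 pairs on the deposited counts. Most genes spread along the vertical axis, where knockout replicate 2 differs, and on the deposited counts Ap3b2 and Fbxo44 differ mainly in replicate 1.

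Knockout replicate 1 was next tested alone against the flox libraries, on the assumption that it varies like the controls. EdgeR called 46 of 13698 genes (0.336%), 15 higher (0.11%) and 31 lower (0.226%). Of the 31 lower genes, knockout replicate 2 lay below both flox libraries in 30, and of the 15 higher genes it lay above both in 12 and below both in 3, and after length and GC correction above both in 14 and below both in 0. Over all genes the groups did not overlap in 28.7%, and both knockout libraries lay below both flox libraries in 16.3% and above both in 12.4%, and the same flox libraries entered the choice of the 46, so this count is a description. With length and GC correction edgeR called 286 genes (2.09%), 0.832% higher and 1.26% lower, among them 45 of the 46. DESeq2 called 973 genes (7.1%), 2.83% higher and 4.27% lower. Single control libraries set the number of edgeR calls. Leaving out flox replicate 1 gave 537 and flox replicate 2 gave 4811, while leaving out Cre control replicate 1, 2 or 3 gave 6, 1 or 0. For knockout replicate 2 alone, edgeR called 7547 of 13700 genes (55.1%), 3663 higher (26.7%) and 3884 lower (28.4%), and without scaling factors the split was 2358 higher and 5075 lower. By DESeq2 the number was 7201 (52.6%; 26.1% up and 26.4% down). After length and GC correction edgeR called 5614 genes (41%; 18.8% up and 22.1% down).

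Besides Hand1 and Mybpc1, the genes that fell in knockout replicate 1 included Rgs8, Kcnd3 and Cacna1d. Rgs8, a regulator of G-protein signalling, stood at 1.36 and 1.69 CPM in the knockout (replicates 1 and 2), against 6.90 and 5.58 CPM in flox (log2 -2.18 ± 0.31 in replicate 1, edgeR adjusted p = 0.0469). The potassium channel gene Kcnd3 stood at 1.57 and 2.59 CPM in the knockout, against 6.36 and 7.04 CPM in flox, and the L-type calcium channel gene Cacna1d at 12.7 and 9.63 CPM, against 32.8 and 42.5 CPM. In these 3 genes both knockout libraries were below both flox libraries, but none passed the 2-fold rule after correction. In replicate 2 the difference of Rgs8 was -1.83 before and -1.07 after correction, that of Kcnd3 -1.34 and -0.59, and that of Cacna1d -1.95 and -1.03. Masp1, Ago2 and Cbl were also called in replicate 1 (edgeR adjusted p = 0.0318, 0.0469 and 0.0469). The homeobox gene Hmbox1 stood at 12.4 and 18.7 CPM in the knockout, against 44.1 and 50.4 CPM in flox, differences of -1.92 and -1.33 that were -1.71 and -2.12 after correction. The zinc finger gene Zfp169 (2.76 and 8.37 CPM in the knockout, against 12.6 and 10.7 in flox) differed by -2.04 and -0.47 (log2) in replicates 1 and 2, and by -1.72 and -1.20 after correction. Fbxo44, an F-box gene, differed between the knockout libraries: it stood at 0.838 and 10.2 CPM in replicates 1 and 2, against 15.3 and 7.63 CPM in flox, so that replicate 2 lay within the flox range.

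Among genes that rose in knockout replicate 1, Ap3b2, a neuronal subunit of the AP-3 adaptor, stood at 91.0 and 18.4 CPM in the knockout (replicates 1 and 2), against 7.92 and 13.6 CPM in flox (log2 3.09 ± 0.26 in replicate 1, edgeR adjusted p = 0.0224). The differences of Ap3b2 were 3.12 and 0.82 (log2) in replicates 1 and 2, and 2.89 and 1.64 after correction, when it passed the 2-fold rule in all 4 pairs. Cck, Slc35d3 and Gas6 were called as well (edgeR adjusted p = 0.0469, 0.0224 and 0.0469). Scd1, a fatty acid desaturase, stood at 24.5 and 9.15 CPM in the knockout, against 6.98 and 7.37 CPM in flox. Myzap, a protein of the intercalated disc, stood at 110 and 78.3 CPM in the knockout, against 48.2 and 51.1 CPM in flox. It was high in both knockout libraries and also in Cre control replicates 1 to 3 (88.3, 85.7 and 82.4 CPM). Mycbpap stood at 35.6 and 22.8 CPM in the knockout, against 16.4 and 15.2 CPM in flox. For the sphingosine-1-phosphate receptor gene S1pr3 (55.1 and 20.1 CPM in the knockout, against 24.5 and 25 in flox) and the smooth muscle regulator Prdm6 (23.3 and 8.37 CPM, against 9.01 and 9.73), replicate 2 lay below both flox libraries before correction and above both after it, at 0.39 and 0.40 over the flox mean. Epb4.1l4a, a cytoskeletal protein of the band 4.1 family, stood at 18.0 and 7.77 CPM in the knockout, against 6.67 and 7.49 CPM in flox.

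Lists of heart patterning genes differed in direction, and edgeR called none of their members other than Hand1 with both knockout libraries. Of 9 Iroquois and chamber-boundary T-box genes, 2 lay above both flox libraries in both knockout libraries and 1 below, against 12.4% and 16.3% of all genes. Their median log2 change was 0.21, and by single library 0.43 and -0.16 in replicates 1 and 2 (0.21 and 0.62 after correction). Of 9 genes of the second heart field and outflow tract, 6 lay below both flox libraries in both knockout libraries, against 16.3% of all genes tested. Their median log2 change was -0.81, against 0.02 for all genes. By single library it was -0.63 and -0.42 in replicates 1 and 2 (-0.54 and -0.67 after correction). Sfrp5, a secreted Wnt antagonist, stood at 1.33 and 0.301 CPM in the knockout (replicates 1 and 2), against 2.38 and 4.45 CPM in flox. Bmp4 stood at 16.8 and 18.3 CPM in the knockout, against 29.2 and 31.1 CPM in flox. Wnt5a, a noncanonical Wnt ligand, stood at 72.8 and 48.4 CPM in the knockout, against 97.4 and 115 CPM in flox. Sema3c, a guidance ligand of the outflow tract, stood at 27.7 and 76.1 CPM in the knockout, against 113 and 90.2 CPM in flox, and fell in replicate 1 (log2 -1.86, edgeR adjusted p = 0.0469). In the trabecular list 4 of 12 lay below, 1 above, and 7 overlapped. The list medians were -0.23 and -0.96 in replicates 1 and 2 (-0.1 and -0.59 after correction). The list summed to 2750 and 4940 CPM in the knockout, against 4080 and 3740 CPM in flox, so replicate 2 was above both flox libraries. Nppa, atrial natriuretic factor and a mark of trabecular myocardium, stood at 521 and 706 CPM in the knockout, against 1510 and 1260 CPM in flox (log2 -1.18 ± 0.28, edgeR adjusted p = 0.369), with differences of -1.41 and -0.97 that were -1.59 and -1.74 after correction. Slit2, a guidance ligand, stood at 150 and 123 CPM in the knockout, against 279 and 288 CPM in flox. The groups did not overlap for any of these 6 genes, and the knockout libraries differed most from each other for Sfrp5 and Sema3c.

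Of 25 genes of the BMP and TGF-beta pathway, 6 lay below both flox libraries and 1 above, where 16.3% of all genes lay below and 12.4% above. The type I receptor gene Bmpr1b stood at 2.62 and 3.79 CPM in the knockout, against 8.43 and 9.73 CPM in flox, and the activin receptor gene Acvr2b at 7.57 and 8.31 CPM, against 18.1 and 17.8 CPM. Of 14 core cardiac transcription factors, 4 lay below and 0 above. Myocd, the myocardin coactivator, stood at 73.5 and 65.9 CPM in the knockout, against 108 and 134 CPM in flox (corrected differences of -0.71 and -0.25), and Prox1 at 29.9 and 34.0 CPM, against 56.7 and 52.8 CPM. Of 26 Wnt genes, 8 lay below and 0 above, and of 21 guidance genes, 7 lay below and 1 above. The guidance genes had a median length of 6521 bases, against 2993 for all genes tested, and these counts are uncorrected. The list medians were -0.28 for BMP and TGF-beta, -0.28 for core factors, -0.39 for Wnt and -0.66 for guidance genes, on the log2 scale with both knockout libraries. By single library the medians were -0.04 and -0.71 for BMP and TGF-beta and -0.06 and -0.74 for core factors in replicates 1 and 2. They were 0.13 and -1.03 for Wnt and -0.24 and -1.21 for guidance genes. In replicate 1 they were thus near 0 except for guidance genes. After length and GC correction they were -0.17 and -0.38 for BMP and TGF-beta and -0.08 and -0.26 for core factors. For Wnt they were then -0.06 and -0.50 and for guidance genes -0.16 and -0.70, without that exception in replicate 1.

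Contractile genes differed between the knockout libraries. The thin filament list had medians of 0.32 and -0.04 in replicates 1 and 2 (0.22 and -0.17 after correction), and the thick filament list 0.27 and -0.82 (0.28 and -0.43). Of 16 thin filament genes, 5 lay above both flox libraries in both knockout libraries and 1 below, against 12.4% and 16.3% of all genes tested. Cardiac troponin I (Tnni3) stood at 610 and 1000 CPM in the knockout (replicates 1 and 2), against 514 and 432 CPM in flox. Of 16 thick filament genes, 4 lay above and 2 below. The atrial light chain gene Myl7 stood at 2210 and 3900 CPM in the knockout, against 1430 and 1290 CPM in flox, and the ventricular light chain gene Myl2 at 4980 and 7400 CPM, against 4640 and 3910 CPM. These are short transcripts, of 824 bases for Tnni3, 590 for Myl7 and 633 for Myl2, and knockout replicate 2 was the higher knockout library each time. After correction the differences in replicates 1 and 2 were 0.19 and 0.32 for Tnni3, 0.59 and 0.36 for Myl7, and 0.24 and -0.64 for Myl2, where replicate 2 turned to below flox. Myh7, the long beta-myosin heavy chain, stood at 10700 and 1210 CPM in the knockout, against 5370 and 8240 CPM in flox, so that the 2 knockout libraries lay on opposite sides of both flox libraries, also after correction (0.58 and -1.31). Among skeletal isoforms, fast troponin I (Tnni2) stood at 60.4 and 67.7 CPM in the knockout, against 25.3 and 15.4 CPM in flox (differences of 1.61 and 1.78, after correction 1.46 and 0.77), and slow troponin T (Tnnt1) at 58.8 and 69.0 CPM, against 133 and 115 CPM. None of these passed the edgeR test with both knockout libraries.

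Among genes of excitation, 4 of 11 calcium channel genes lay below both flox libraries and 1 above. Of 19 potassium channel genes, 7 lay below and 2 above, where 16.3% of all genes lay below and 12.4% above. These counts are uncorrected, and the lists have long transcripts, with medians of 7493 and 4496 bases, against 2993 for all genes tested. The calcium channel medians were -0.54 and -1.44 in replicates 1 and 2 (-0.26 and -0.49 after correction). Potassium channels had -0.12 and -0.66 (-0.18 and -0.22). Cacna1c stood at 182 and 90.9 CPM in the knockout, against 252 and 289 CPM in flox, differences of -0.57 and -1.57 that were -0.18 and -0.47 after correction. Of 17 genes of adenylyl cyclase and beta-adrenergic signalling, 9 lay below and 0 above. The cyclase gene Adcy2 stood at 0.768 and 0.361 CPM in the knockout, against 2.61 and 2.21 CPM in flox. The phosphodiesterase genes Pde3a and Pde4d stood at 15.0 and 11.1 CPM and at 42.3 and 36.5 CPM in the knockout, against 29.4 and 23.9 CPM and 66.9 and 75.8 CPM in flox. The corrected differences were -0.62 and -1.56 for Pde3a and -0.62 and -0.16 for Pde4d. The list median was -0.20 in knockout replicate 1 and -1.08 in replicate 2, and -0.42 and -0.37 after correction. Of 12 argonaute and microRNA pathway genes, 6 lay below and 1 above, with medians of -0.38 and -0.82 that became -0.13 and 0.01 after correction. Their median length was 7349.5 bases. Ago2 was the member past 2-fold in all 4 pairs.

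**Figure D4:**
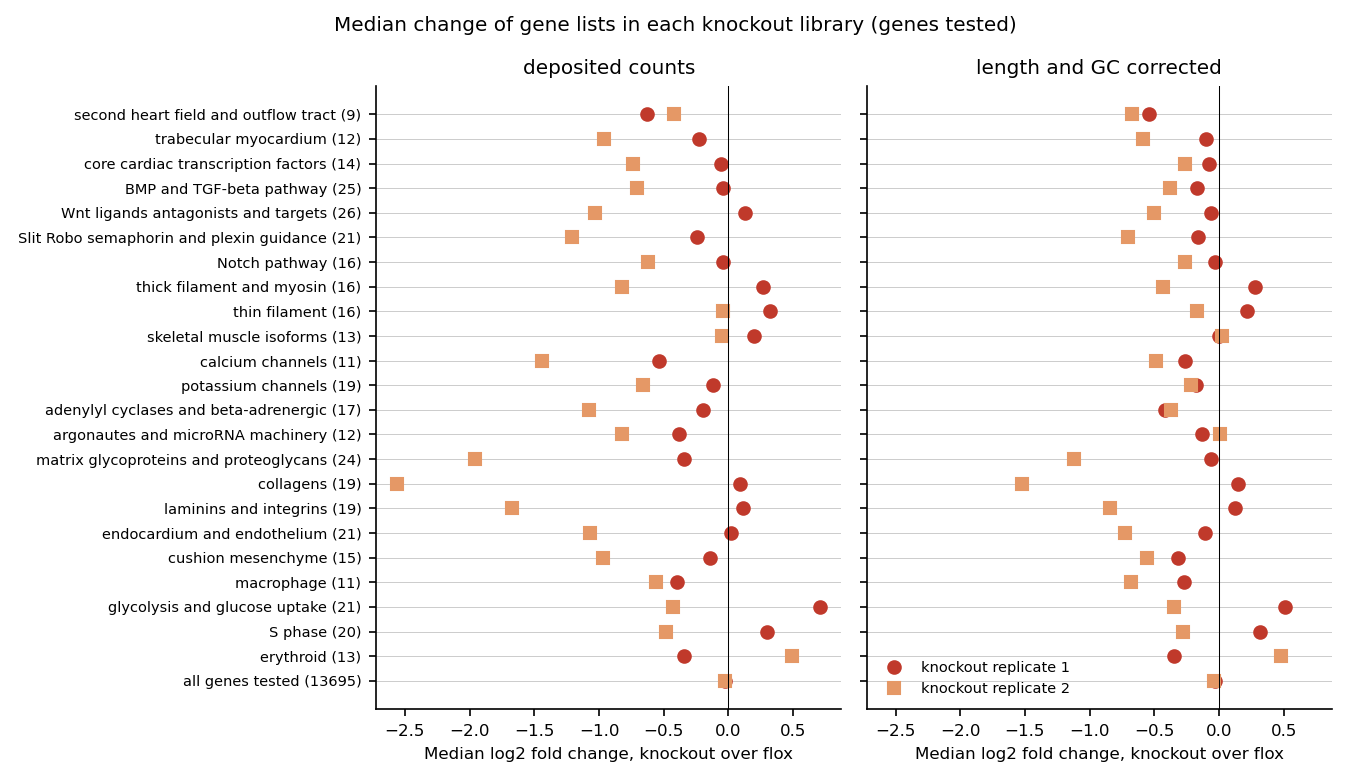
Median log2 fold change over flox (horizontal axis) of 23 gene lists and of all genes tested, for knockout replicate 1 (red circles) and replicate 2 (orange squares), on the deposited counts (left) and after length and GC correction (right). Numbers in parentheses are genes tested. For collagens the medians are 0.09 and -2.56 on the deposited counts, and for adenylyl cyclases -0.42 and -0.37 after correction.

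Matrix genes split the knockout libraries. Of 24 matrix glycoprotein and proteoglycan genes, 9 lay below both flox libraries in both knockout libraries and 0 above, where 16.3% of all genes lay below and 12.4% above. Their medians were -0.34 and -1.96 in replicates 1 and 2, and -0.06 and -1.12 after correction. These genes had a median length of 4842 bases, against 2993 for all genes tested. Smoc1, a secreted calcium-binding protein, stood at 2.41 and 1.75 CPM in the knockout, against 8.11 and 9.17 CPM in flox, and fell in replicate 1 (log2 -1.83 ± 0.24, edgeR adjusted p = 0.0469). Its difference in replicate 2 was -2.25 before and -1.56 after correction. Versican (Vcan), the main proteoglycan of the cardiac jelly, stood at 1010 and 967 CPM in the knockout, against 1640 and 1650 CPM in flox, differences of -0.71 and -0.77 that were -0.09 and -0.38 after correction. Collagens differed: the list median was 0.09 in knockout replicate 1 and -2.56 in replicate 2, and 0.15 and -1.52 after correction. Type III collagen (Col3a1) stood at 693 and 122 CPM in the knockout, against 462 and 771 CPM in flox. Glycolysis genes had medians of 0.71 in replicate 1 and -0.43 in replicate 2 (0.51 and -0.35 after correction). The glycolytic enzyme gene Aldoa stood at 2240 and 960 CPM in the knockout, against 1050 and 1320 CPM in flox, above both flox libraries in replicate 1 and below both in replicate 2.

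Markers of other cells varied with library. The 13 erythroid genes tested summed to 3270 and 14700 CPM in the knockout (replicates 1 and 2), against 4050 and 4450 CPM in flox. Embryonic beta-globin (Hbb-y) stood at 1710 and 10900 CPM in the knockout, against 2520 and 2520 CPM in flox, so the high value was in replicate 2 only, where the difference was 2.11 before and 0.52 after correction. Of 21 endocardial and endothelial genes, 5 lay below both flox libraries and 2 above, where 16.3% of all genes lay below and 12.4% above, with summed levels of 1910 and 1060 CPM in the knockout, against 1980 and 2320 CPM in flox. Of 15 cushion mesenchyme genes, 6 lay below and 1 above (657 and 498 CPM summed in the knockout, against 711 and 826 in flox). The 11 macrophage genes summed to 34.0 and 48.5 CPM in the knockout, against 73.9 and 61.6 CPM in flox, 6 of them lying below in both knockout libraries. Atrial genes summed to 2600 and 4270 CPM in the knockout, against 1750 and 1650 CPM in flox, mostly through Myl7. Of the hepatic list Apob and Apoa2 were tested: Apob stood at 0.384 and 0.783 CPM in the knockout, against 3.63 and 4.08 CPM in flox. The part of cell composition in the results above was not tested.

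The Cre controls showed where a low or high level in the knockout was also found in hearts with the Cre allele and unfloxed Hand1. They differ from flox by the Cre allele and by unfloxed Hand1, and they lack the prefix NT. These differences cannot be told apart here. For 14 of the 46 genes called in knockout replicate 1, and for 23 of the 124 genes past 2-fold, the mean of the Cre controls lay nearer to the knockout mean than to the flox mean (log2 scale). For the other 32 and 101 genes it lay nearer to the flox mean or beyond it. In 33 of the 46 and 107 of the 124 both knockout libraries lay outside all 3 Cre controls on the same side as against flox. The genes were chosen by how far the same knockout libraries lay from flox, and no share over all genes was computed. These counts are therefore a description. Rgs8 stood at 1.92, 1.79 and 1.62 CPM in Cre controls, beside 1.36 and 1.69 CPM in the knockout, both below the 6.90 and 5.58 CPM of flox. Bmpr1b stood at 2.38, 3.04 and 2.72 CPM in Cre controls, Dio2, a thyroid hormone deiodinase, at 3.84, 3.80 and 4.08 CPM, Apob at 0.768, 1.47 and 1.36 CPM, and Tnnt1 at 61.2, 67.6 and 55.1 CPM. Of these, Dio2 stood at 2.79 and 2.35 CPM in the knockout, against 9.67 and 8.87 CPM in flox. Prdm6 stood at 17.6, 16.4 and 20.1 CPM and Epb4.1l4a at 17.3, 13.5 and 14.7 CPM in Cre controls, nearer to knockout replicate 1 than to flox. Sema3c stood at 50.3, 48 and 64.7 CPM, Ankrd63 at 1.38, 0.752 and 1.25 and Nkx2-5 at 97.7, 114 and 89.3 CPM in Cre controls. For each of these genes the Cre mean lay nearer to the knockout mean than to the flox mean. The macrophage genes summed to 27.9, 27.6 and 32.8 CPM in Cre controls, below both knockout libraries. Other genes went beyond flox: Hand1 stood at 94.7, 66.3 and 82.6 CPM in Cre controls, Mybpc1 at 20.2, 16.3 and 16.8 CPM, Mab21l2 at 26.2, 14.7 and 20.8 CPM and Tnc at 193, 149 and 176 CPM. Masp1 (12.7, 12.8 and 12.9 CPM) and Slc35d3 (4.80, 4.51 and 4.34 CPM) stood close to flox. Differences between the control groups were not tested here.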

How the data were processed

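Polyadenylated RNA of dissected E11.5 ventricles was sequenced. Per the submitters' processing notes, STAR 2.4.2a, featureCounts, Subread 1.5.0 and edgeR were used with the mm10 genome. The annotation, settings and use of strand are not given in the sources used here. What the authors deposited are raw counts per gene, 13701 genes in 7 libraries, the lowest summed count being 9. Its log2 fold changes and p-values, deposited by the authors for another comparison, were not used here.

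Total counts ranged from 18975283 to 28346700, so genes near 1 CPM carry much counting error. Gene names were cleaned of added notes (47) and of conversion to dates (20, restored from coordinates). GC content was found for 96.4% of genes, and gene length is the deposited summed exon length. CPM are TMM-scaled, with a prior count of 2 on the log2 scale. Without scaling factors the median log2 change of all genes was -0.11, and changes are relative to the TMM scale.

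Differences were tested in R 4.3.3 with the robust quasi-likelihood method of edgeR 4.0.16 (TMM, filterByExpr) on all 7 libraries, with a mean per group and a Benjamini-Hochberg adjusted p below 0.05 as threshold. The fit was repeated with each knockout library alone. Alternatives used DESeq2 1.42.0, limma 3.58.1 (voom with quality weights) and length and GC trends per library from mgcv 1.9.3. The fits were also run on simulated counts with the same dispersion for all genes and libraries. Apart from a length trend added in a separate check, the differences between the sequenced libraries were not modelled. The simulation therefore does not bear on the calls above. An exact permutation test of 2 against 2 libraries cannot go below p = 0.333 (two-sided), so none was used. Promoters are from RefSeq (GRCm38.p6), matched for 10035 of 13695 tested genes by a start within 500 bases of the deposited one.

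Named genes were Hand1, Hand2 and Nkx2-5, every gene called with all libraries, up to 10 called genes each way in knockout replicate 1, up to 10 each way among genes past 2-fold in all 4 pairs before and after correction (the higher group mean at least 5 CPM, no predicted or sex-linked gene), and from each of 48 gene lists the 3 genes with the smallest p and the 2 most abundant. Tnnt2, Prickle2, Scube2 and Dio2 fall outside this rule and were chosen after their values were seen. Some genes that the rule names are not reported here. The comparison, lists and rule were chosen with earlier results of these data known.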

Additional observations from a re-analysis of the deposited data

How the results depend on the processing

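Depth limits genes near 1 CPM, and with 2 libraries a group the calls rest on the spread that the other libraries supply. With both knockout libraries edgeR called 2 genes, against 1 with RLE scaling, 1 with a minimum of 1 CPM in 2 libraries, 302 by DESeq2, 0 by limma-voom and 0 with the knockout and flox libraries alone. Leaving out single libraries gave 0 to 7547 (7547 without knockout replicate 1, 46 without knockout replicate 2, 0 without any 1 control). For knockout replicate 1 alone the 46 calls became 973 by DESeq2, 3 by limma-voom, 8 with length correction and 286 with length and GC correction, and 0 to 4811 without single controls. For knockout replicate 2 alone the 7547 calls stayed between 5614 and 8951. The log2 change of Hand1, -5.06, was -5.03 by limma-voom (adjusted p = 0.888) and -5.04 with the knockout and flox libraries alone (edgeR adjusted p = 0.984), and -5.27 to -4.76 without single libraries. Hand2, at 0.03, changed sign without scaling factors (-0.10), by limma-voom (-0.02) and with length correction (-0.06), and ran from -0.15 to 0.20 without single libraries. Of the genes past 2-fold in all 4 pairs, 124, 72 had at least 5 CPM, 417 passed at 1.5-fold, and 241 to 3175 passed without single libraries. Among single genes, 591 values kept their direction and side of the threshold, 100 lost and 30 gained a call, 44 without a test moved and 5 changed sign. The cause was not tested. No paired analysis was possible because the libraries' identifiers give no replicate number shared between groups, and their shared prefix marks both knockout libraries and 1 flox library without pairing them.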

Other observations

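Genes of sterol and fatty acid synthesis were not in any list and were picked after their values were seen, so they are described without a test of the group. Sqle, the squalene epoxidase, stood at 98.8 and 63.2 CPM in the knockout (replicates 1 and 2), against 50 and 60.9 CPM in flox. Hmgcs1, the cytosolic HMG-CoA synthase, stood at 255 and 235 CPM in the knockout, against 168 and 180 CPM in flox, and Cyp51, a demethylase of the same pathway, at 120 and 90.7 CPM, against 75.6 and 76.1 CPM. Both knockout libraries lay above both flox libraries for these 3 genes, and after length and GC correction still did for Sqle and Cyp51, while for Hmgcs1 the corrected difference of replicate 2 was 0.03. The fatty acid synthase gene Fasn was high in knockout replicate 1 only, at 361 and 40.6 CPM in the knockout, against 147 and 217 CPM in flox. Knockout replicate 2 lay below both flox libraries for Fasn.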
